A study of Mus musculus with 18 samples.

Results

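The cytokines interleukin-6, interleukin-11 and leukaemia inhibitory factor signal through a shared receptor subunit, gp130. They were followed here as 8 of the 55450 genes in the deposited table, picked by gene symbol: the ligands Il6, Il11 and Lif, the receptor subunits Il6st (gp130), Il11ra1, Lifr and Osmr, and the feedback inhibitor Socs3. The cells were mouse embryonic fibroblasts (MEF) from the American Type Culture Collection, and poly(A) RNA was sequenced in 18 libraries, 3 for each of 6 groups. Cells received the empty pcDNA3 plasmid, a plasmid in which the Col1a1 collagen promoter drives miR-29b, or a plasmid in which the cytomegalovirus (CMV) promoter drives it. In the paper both miR-29b plasmids hold a human miR-29b-1 sequence and genes for a green and a red fluorescent protein, which the empty plasmid is not said to hold. From 6 h after transfection they were left untreated or given TGF-β for 24 h. The transfection was transient and whole cultures were collected, so transfected and untransfected cells were measured together, and fewer cells of a type and less RNA per cell cannot be told apart. Total counts ranged from 65898017 to 80332633 per library. Replicates carry the letters c, d and e, except for 1 library in either group with the Col1a1-miR-29b plasmid. Its columns carry a letter, f, that no sample title has, and it is called unlettered here. Its counts were used as a library of that group, and whether it is the sample titled e is not known.

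Each ligand of this family first binds a receptor subunit of its own, and the pair then recruits gp130. Janus kinases attached to the receptor tails phosphorylate STAT3, which enters the nucleus and switches on target genes. Among those is Socs3, whose protein binds gp130 and its kinases and shuts the signal down. Fibroblasts make IL-6, IL-11 and LIF, and IL-11 is known as a product of fibroblasts exposed to TGF-β.

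The plasmids deliver miR-29b, and its mature sequence is shown because the letters that pair with target messages can be looked for in the members. RefSeq (GRCm38.p6) places the same mature strand in 2 genes, Mir29b-1 at chr6:31063025-31063047 on the minus strand and Mir29b-2 at chr1:195037091-195037113 on the plus strand. Capitals mark the seed, bases 2 to 8, which miR-29a and miR-29c share.
mmu-miR-29b-3p: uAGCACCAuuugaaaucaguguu
mmu-miR-29a-3p: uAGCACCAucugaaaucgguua
mmu-miR-29c-3p: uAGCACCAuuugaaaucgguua
The DNA letters complementary to the seed, TGGTGCT, occur in the longest annotated 3′ UTR of 3 of the 8 members, against 13.1% of the 21001 genes with an annotated 3′ UTR. The members' longest 3′ UTRs run from 354 to 6320 bases, and the median over all genes is 961 bases. Capitals mark the match in the stretches below, which lie on the plus strand of GRCm38 at chr5:30019069-30019092 for Il6, chr11:4270499-4270522 for Lif and chr13:112506436-112506459 for Il6st.
Il6: agacaaataagatggTGGTGCTga
Lif: tttatattaacttatTGGTGCTtt
Il6st: cctcatatcagacagTGGTGCTgt
The match is in 1 of 4 annotated transcripts of Il6 with a 3′ UTR, in 2 of 2 of Lif and in 2 of 5 of Il6st. None of the 3 matches is followed by an A. A match of letters does not show that the miRNA binds there.

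The plasmids were checked on counts of Mir29b-1, a mouse gene of the miR-29b hairpin, although the insert is human and how its reads matched the mouse gene was not tested. It had a count of 0 in each of the 6 empty vector libraries. With the Col1a1-miR-29b plasmid its untreated libraries held counts of 0, 1 and 1 and its treated ones 4, 2 and 6. Libraries of the CMV-miR-29b plasmid held 110, 115 and 309 untreated and 214, 203 and 293 treated. Every CMV-miR-29b library lay far above every Col1a1-miR-29b library, and poly(A) sequencing does not measure the mature miRNA.

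The label of the cells was checked against marker genes, summed as CPM (counts scaled by library total and edgeR's TMM factors). The 10 fibroblast markers summed to 1910.1 to 2743 CPM in the 9 untreated libraries and to 3629 to 5649 in the 9 treated ones, with Col1a1 the most abundant. Of the 10, 8 passed the filter on low counts. TGF-β in empty vector cells raised 4 of these and lowered 2, where 5.88% of all tested genes were called. Col1a2 stood there at a log2 fold change of 1.48, Col1a1 at 1.26, Col3a1 at 0.97 and Pdgfrb at 0.83. Dcn stood at −1.11 and S100a4, named here after its value was seen, at −0.29. Lum, a proteoglycan of many fibroblasts, was at 0 in all 18 libraries, and Thy1 did not pass the filter either. The 3 T cell markers summed to at most 0.0550 CPM, the 4 epithelial markers to at most 0.964 and the 6 macrophage markers to between 17.8 and 23.4, mainly Cd68. Muscle markers summed to between 13.5 and 21.3 CPM, nearly all of it Des. Sums for a few other lineages differed with TGF-β. The neural sum, mainly Tubb3 with Snap25 at 0, was 29.2 to 38.4 CPM untreated and 50.3 to 60.9 treated, and Tubb3 was called under each plasmid. The sum of the 4 endothelial markers, most of it Cdh5, was 0.936 to 1.85 CPM untreated and 2.09 to 3.03 treated, and Cdh5 was called in empty vector cells. The sum of the 3 adipocyte markers, mainly Fabp4, was 0.867 to 1.49 CPM untreated and 0.108 to 0.828 treated, and Fabp4 was called with both miR-29b plasmids, although the call with CMV-miR-29b held in 4 of 18 fits that each left out 1 library. Their part in the results below was not tested.

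Levels of different genes were compared per transcript length, as the FPKM values that the authors deposited, in the 16 libraries whose FPKM column could be matched. In untreated empty vector cells Il6st stood highest at 31.4 ± 1.04 FPKM (SD, n = 3), followed by Socs3 at 15.4 ± 0.499 and Lif at 12.1 ± 1.22. Il6, Osmr and Il11ra1 lay close together at 4.92 ± 0.872, 4.53 ± 0.0465 and 4.24 ± 0.188 FPKM. Il11 at 0.662 ± 0.201 and Lifr at 0.324 ± 0.177 FPKM were the lowest. In this group the libraries of Il6 and Osmr overlapped, while the other neighbours in the order did not. The receptor subunit common to the family was thus far more abundant per length than any of its specific partners. Il6st, Socs3 and Lif held the upper ranks and Il11 and Lifr the lower ranks in all 6 groups, although the libraries of Socs3 and Lif overlapped in empty vector cells with TGF-β and those of Il11 and Lifr in Col1a1-miR-29b cells without it. With TGF-β, Il6 lay below Il11ra1 and Osmr in mean FPKM in every plasmid group. Its libraries overlapped those of Osmr with both miR-29b plasmids and those of Il11ra1 with CMV-miR-29b. The mean for Col1a1-miR-29b rests on 2 libraries, and length-scaled counts of all 3 placed Il6 above Osmr there.

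**Figure D1:**
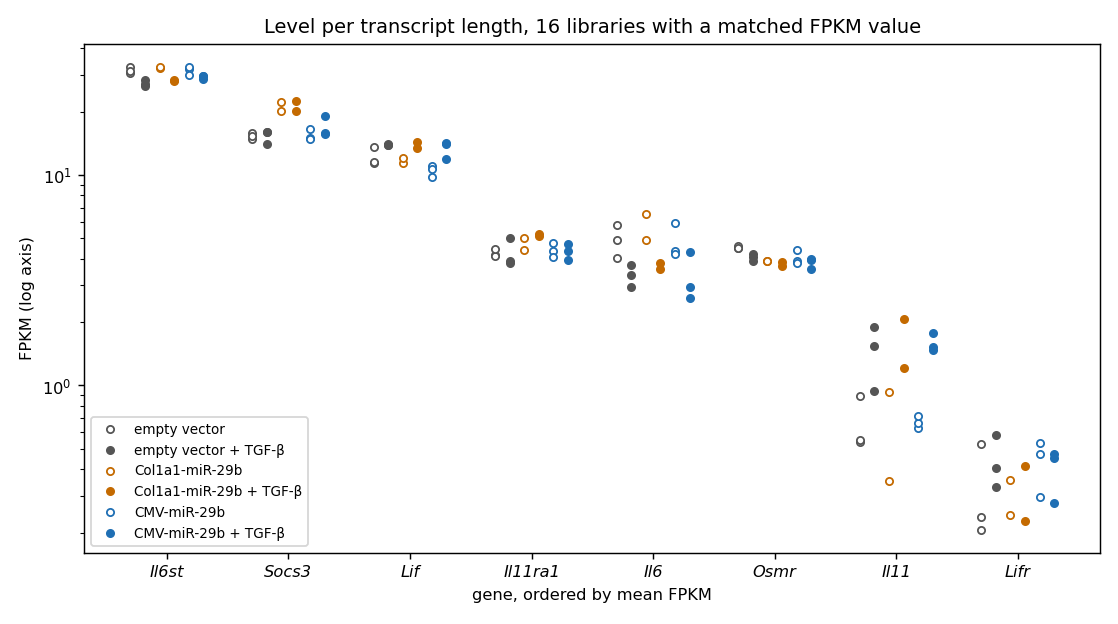
FPKM on a log axis for each member in the 16 libraries with a matched value, coloured by plasmid and filled where TGF-β was given. Il6st lies near 31.4 FPKM in untreated empty vector cells and Lifr near 0.324.

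All 8 members passed the filter on low counts, and each comparison was tested over the same 21161 genes with edgeR's quasi-likelihood test. A gene was called where its Benjamini-Hochberg adjusted p was under 0.05. The p-values rest on the spread between libraries of a group. The paper states that each group had 3 repeats of the experiment, the labels do not say what was repeated, and part of the spread may be technical. TGF-β changed 1 of 8 members in empty vector cells, where 5.88% of all tested genes were called. It changed 2 of 8 in Col1a1-miR-29b cells, where 4.32% of genes were called, and 2 of 8 in CMV-miR-29b cells, where 4.95% were. Counts this small against those backgrounds say little about the family as a whole, and the members are described singly. The members' median log2 fold changes were 0.03, 0.08 and −0.04, and those of all tested genes 0.0023, −0.0056 and −0.0025. The response of the members to TGF-β was not shown to depend on the plasmid. In the test of that difference edgeR called 0 of 8 members for Col1a1-miR-29b against empty vector, where 0% of all genes were called, and 0 of 8 for CMV-miR-29b, where 0% were. For both differences 0 members had an unadjusted p under 0.05 and DESeq2 called 0 members, although DESeq2 called 21 and 19 genes over the whole table.

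**Figure D2:**
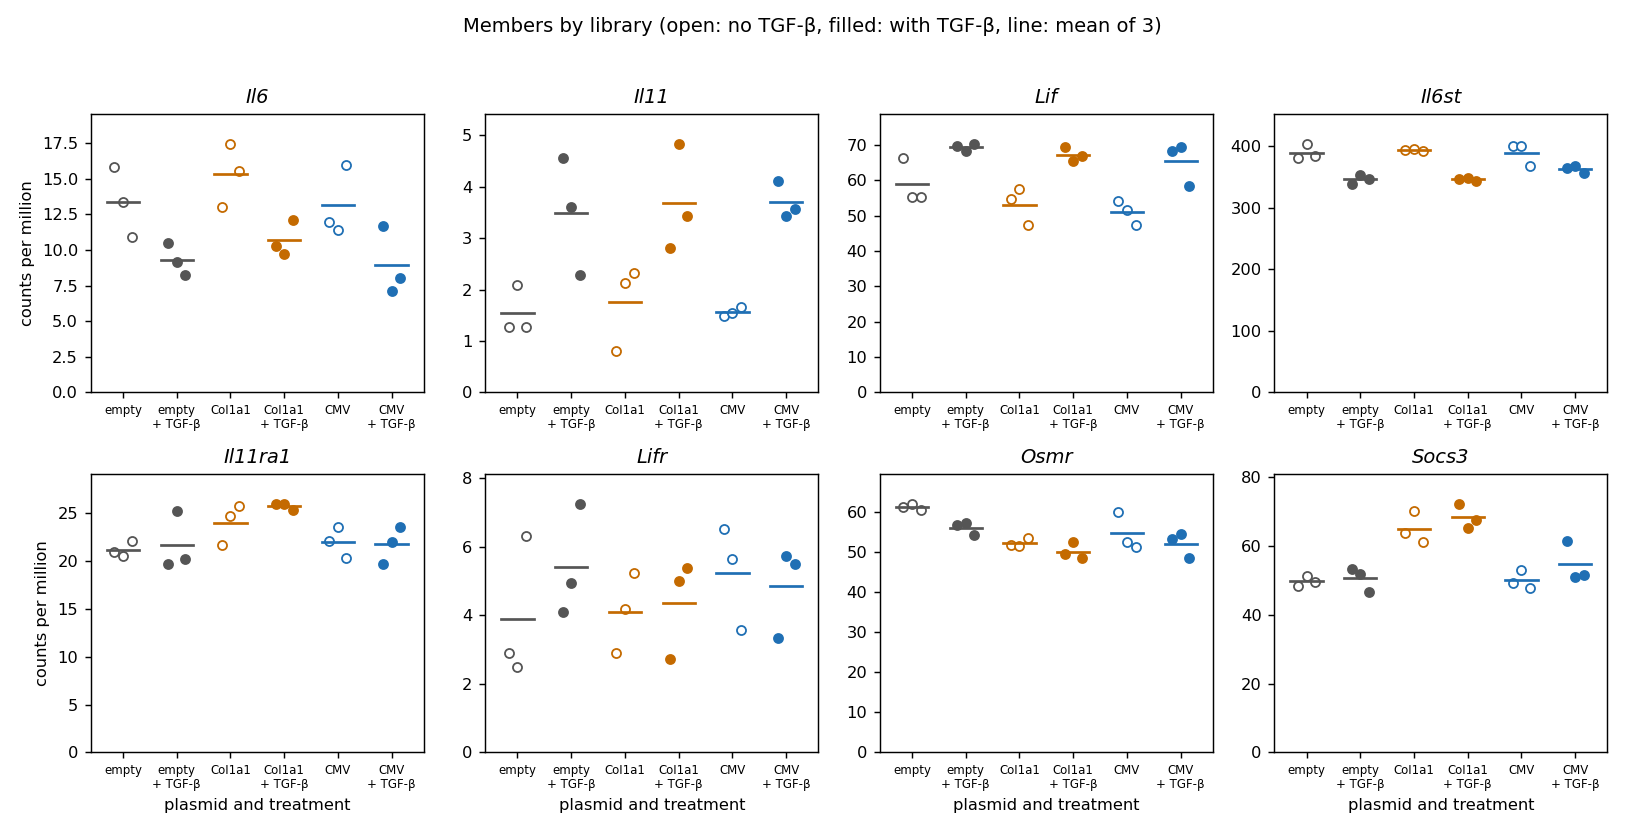
CPM of the 8 members in each of the 18 libraries, grouped by plasmid and treatment, with open circles for no TGF-β, filled circles for TGF-β and a line at the mean of 3. Il11 lay higher with TGF-β in each plasmid group, and Socs3 stood higher with the Col1a1-miR-29b plasmid. Il6 was lower in mean with TGF-β, overlapped in CMV-miR-29b cells and passed in no comparison, and the slight fall of Il6st did not pass in CMV-miR-29b cells.

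Among the ligands, Il11 (ENSMUSG00000004371, chr7:4772373-4782857 on the minus strand) encodes a cytokine of the stromal injury response. Its level was 1.27, 2.08 and 1.28 CPM in the empty vector libraries without TGF-β and 4.56, 3.61 and 2.28 CPM with it. With the Col1a1-miR-29b plasmid it was 0.812, 2.12 and 2.32 CPM without and 2.81, 4.83 and 3.44 CPM with TGF-β. With the CMV-miR-29b plasmid it was 1.48, 1.54 and 1.67 CPM without and 4.12, 3.44 and 3.57 CPM with TGF-β. In each plasmid group all treated libraries lay above all untreated ones, and across plasmids 1 of the 9 untreated libraries reached the range of the treated ones. The log2 fold change was 1.17 ± 0.34 (SE) in empty vector cells, with edgeR's Benjamini-Hochberg adjusted p at 0.0596. It was 1.08 ± 0.34 in Col1a1-miR-29b cells, with edgeR's Benjamini-Hochberg adjusted p at 0.109. It was 1.25 ± 0.34 in CMV-miR-29b cells, with edgeR's Benjamini-Hochberg adjusted p at 0.0499. The estimates were therefore alike in size under the 3 plasmids and lay on either side of the threshold, with the 95% intervals running from 0.44 to 1.90, from 0.35 to 1.80 and from 0.51 to 1.98. The differences between plasmids in this response were −0.10 ± 0.48 for Col1a1-miR-29b and 0.08 ± 0.48 for CMV-miR-29b against empty vector, on the log2 scale. DESeq2 called Il11 in all 3 comparisons, with Benjamini-Hochberg adjusted p-values of 0.0129, 0.0319 and 0.00790, the lowest of ranges that reached 0.230, 0.355 and 0.157 over the other settings and the fits that each left out 1 library. The call in CMV-miR-29b cells held in 6 of 12 other settings and in 3 of 18 fits that each left out 1 library. The counts behind these values ran from 59 to 355 per library.

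RefSeq gives Il11 a pair of start sites, and the promoter of the downstream start is printed because it holds a match to the AP-1 letters, shared with Il6 and Lif. The window covers 250 bases before to 50 after the start, at chr7:4778092-4778391 on the minus strand of GRCm38.p6.
Il11 promoter: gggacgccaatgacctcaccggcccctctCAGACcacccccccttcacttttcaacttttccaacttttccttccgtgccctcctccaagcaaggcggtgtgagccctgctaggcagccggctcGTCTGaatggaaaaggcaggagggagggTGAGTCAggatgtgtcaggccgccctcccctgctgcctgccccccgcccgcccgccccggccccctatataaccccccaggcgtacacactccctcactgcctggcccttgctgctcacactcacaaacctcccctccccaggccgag
Capitals mark matches on either strand to TGANTCA (AP-1), TTCNNNGAA (STAT), GGANTTTCC (NF-kappaB) or CAGAC (Smad). In this window the AP-1 match starts at −98, and Smad matches start at −221 and −126. The other Il11 window, at chr7:4782808-4783107, holds 2 Smad matches and no AP-1 match. Of 32851 mouse promoters of the same length, 7.81% hold the AP-1 letters, 8.3% the STAT letters, 1.25% the NF-kappaB letters and 49.6% the Smad letters. A match describes the sequence and does not show a bound factor.

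Il6 (ENSMUSG00000025746, chr5:30013114-30019981 on the plus strand) encodes the family's prototype, an inflammatory cytokine. Il6 was at 15.8, 13.4 and 10.9 CPM in the empty vector libraries without TGF-β and 10.5, 9.18 and 8.22 CPM with it. For the Col1a1-miR-29b plasmid Il6 was at 13.0, 17.4 and 15.5 CPM without and 10.3, 9.75 and 12.1 CPM with TGF-β. For the CMV-miR-29b plasmid Il6 was at 12.0, 11.4 and 15.97 CPM without and 11.7, 7.13 and 8.02 CPM with TGF-β. Treated libraries lay below untreated ones without overlap in empty vector and Col1a1-miR-29b cells, whereas in CMV-miR-29b cells the highest treated library exceeded the lowest untreated one. The direction was thus opposite to that of Il11. The log2 fold change was −0.52 ± 0.19 (SE) in empty vector cells, −0.52 ± 0.19 with the Col1a1-miR-29b plasmid and −0.55 ± 0.19 with the CMV-miR-29b plasmid. None passed, with edgeR's Benjamini-Hochberg adjusted p at 0.150, 0.192 and 0.141. The intervals lay below 0 in each case, from −0.94 to −0.11, from −0.93 to −0.11 and from −0.97 to −0.14. Without replicate c of the treated CMV-miR-29b group the fold change there was −0.79, with edgeR's Benjamini-Hochberg adjusted p at 0.0315, in a range up to 0.404 over the fits that each left out 1 library. The spread between libraries of a group was wide for this gene: the SD was 2.45 CPM around a mean of 13.4 in untreated empty vector cells.
Il6 promoter: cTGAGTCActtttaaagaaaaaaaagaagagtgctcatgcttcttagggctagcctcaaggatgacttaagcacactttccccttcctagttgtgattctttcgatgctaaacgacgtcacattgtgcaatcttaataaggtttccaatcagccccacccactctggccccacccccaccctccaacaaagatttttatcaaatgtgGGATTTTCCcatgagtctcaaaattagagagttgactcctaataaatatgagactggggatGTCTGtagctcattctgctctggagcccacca
This window, at chr5:30012864-30013163 on the plus strand of GRCm38.p6, is marked like that of Il11. An AP-1 match starts at −249, an NF-kappaB match at −43 and a Smad match at 19. Il6 was the only member whose promoter windows held the NF-kappaB letters.

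Lif (ENSMUSG00000034394, chr11:4257557-4272514 on the plus strand) encodes leukaemia inhibitory factor, which acts through a pair of Lifr and gp130. Lif stood at 66.1, 55.2 and 55.3 CPM in the empty vector libraries without TGF-β and 69.5, 68.1 and 70.2 CPM with it. Col1a1-miR-29b cells had Lif at 54.7, 57.4 and 47.2 CPM without and 69.3, 65.5 and 66.8 CPM with TGF-β. CMV-miR-29b cells had Lif at 54.0, 51.5 and 47.4 CPM without and 68.2, 69.4 and 58.3 CPM with TGF-β. Treated libraries lay above untreated ones in each plasmid group, by a small margin in empty vector cells because replicate c without TGF-β was high. The log2 fold change in empty vector cells was 0.23 ± 0.09 (SE), with edgeR's Benjamini-Hochberg adjusted p at 0.153. In Col1a1-miR-29b cells it was 0.34 ± 0.09, with edgeR's Benjamini-Hochberg adjusted p at 0.0371. In CMV-miR-29b cells it was 0.36 ± 0.09, with edgeR's Benjamini-Hochberg adjusted p at 0.0254. Although only the miR-29b groups passed, the responses were not shown to differ: the difference from empty vector was 0.10 ± 0.12 for Col1a1-miR-29b and 0.12 ± 0.12 for CMV-miR-29b. The call in Col1a1-miR-29b cells held in 5 of 12 other settings and in 12 of 18 fits that each left out 1 library, and the call in CMV-miR-29b cells in 11 of 12 and 14 of 18. Of the libraries compared, only Col1a1-miR-29b replicate d could be left out without losing the call in Col1a1-miR-29b cells. Every fit that lost the call in CMV-miR-29b cells left out a library compared.
Lif promoter: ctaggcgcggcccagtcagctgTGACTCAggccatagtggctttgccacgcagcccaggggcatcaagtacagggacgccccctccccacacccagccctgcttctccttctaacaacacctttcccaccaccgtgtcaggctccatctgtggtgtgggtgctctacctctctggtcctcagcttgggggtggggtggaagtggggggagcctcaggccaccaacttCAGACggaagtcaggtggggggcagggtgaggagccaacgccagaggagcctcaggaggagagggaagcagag
The Lif window, at chr11:4257318-4257617 on the plus strand of GRCm38.p6, holds an AP-1 match at −228 and a Smad match at −23, in capitals as above. Over the 11 windows of the 8 members, the AP-1 letters occurred in 4 members (Il6, Il11, Lif and Osmr), the Smad letters in 6, and the STAT letters in Socs3 alone, at −154. Counted by window, as the shares of all promoters are, AP-1 letters were in 4 of 11, Smad letters in 8 and STAT letters in 1.

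The genes whose levels over the 18 libraries were most like those of the ligands were looked up among 13911 genes, as Pearson correlations of log2(CPM + 1). For Il6 they were Top1mt (r = 0.879), H2-T10 (0.859) and the chemokine gene Cxcl1 (0.857). For Il11 they were Cyp2j6 (0.891), Cdr2 (0.883) and P4ha3 (0.877). For Lif they were Anpep (0.938), 1700017B05Rik (0.915) and Rin2 (0.912). These are descriptions over libraries that share the treatment, n = 18.

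**Figure D3:**
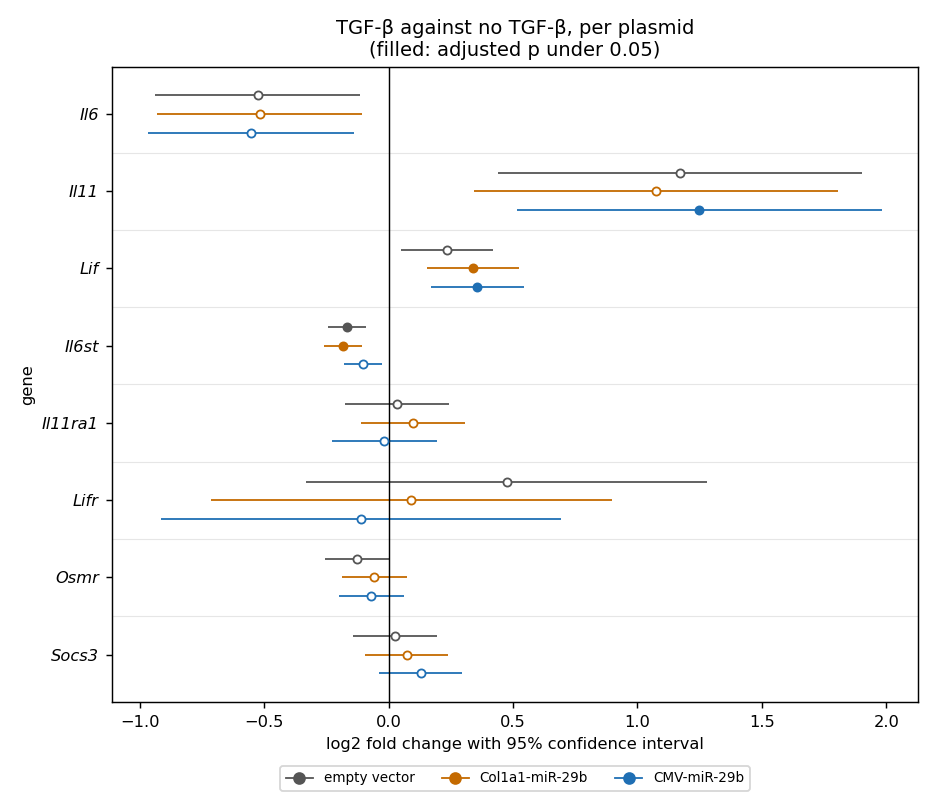
Log2 fold change with its 95% confidence interval for TGF-β against no TGF-β in each plasmid group, filled where edgeR's adjusted p was under 0.05. Il11 stood at 1.17 in empty vector cells, where it was not called, and at 1.25 in CMV-miR-29b cells, where it was, and the 3 plasmids gave overlapping intervals for every member.

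Among the receptor subunits, Il6st (ENSMUSG00000021756, chr13:112464070-112510086 on the plus strand) encodes gp130, the signal-transducing chain. Its level was 380.3, 403 and 384 CPM in the empty vector libraries without TGF-β and 338, 354 and 347 CPM with it. With the Col1a1-miR-29b plasmid it was 394, 395 and 393 CPM without and 347, 349 and 344 CPM with TGF-β. With the CMV-miR-29b plasmid it was 400.2, 399.9 and 368 CPM without and 364, 368 and 356 CPM with TGF-β. All 9 treated libraries lay below all 9 untreated ones, though only just: the highest treated library was at 367.82 CPM and the lowest untreated one at 367.87 CPM, both with the CMV-miR-29b plasmid. The change was small, and most libraries of a group differed little. The log2 fold change in empty vector cells was −0.17 ± 0.04 (SE), with edgeR's Benjamini-Hochberg adjusted p at 0.00969. In Col1a1-miR-29b cells it was −0.18 ± 0.04, with edgeR's Benjamini-Hochberg adjusted p at 0.00639. In CMV-miR-29b cells it was −0.10 ± 0.04 and did not pass, with edgeR's Benjamini-Hochberg adjusted p at 0.148. The call with empty vector held in 11 of 12 other settings and the call with Col1a1-miR-29b in 9 of 12, and both in all 18 fits that each left out 1 library. The weaker fall with CMV-miR-29b was not shown to differ from that in empty vector cells, with a difference of 0.07 ± 0.05. Without replicate e of the untreated CMV-miR-29b group the fall there was −0.15, with edgeR's Benjamini-Hochberg adjusted p at 0.0222, in a range up to 0.424 over the fits that each left out 1 library.

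The members Osmr, Lifr and Il11ra1, specific receptor subunits, were not called with TGF-β. Osmr (ENSMUSG00000022146, chr15:6813577-6874969 on the minus strand) encodes the subunit that pairs with gp130 for oncostatin M. Osmr was at 61.4, 62.0 and 60.4 CPM in the empty vector libraries without TGF-β and 56.8, 57.4 and 54.2 CPM with it. For the Col1a1-miR-29b plasmid Osmr was at 51.7, 51.5 and 53.5 CPM without and 49.5, 52.5 and 48.5 CPM with TGF-β. For the CMV-miR-29b plasmid Osmr was at 60.1, 52.6 and 51.4 CPM without and 53.3, 54.6 and 48.6 CPM with TGF-β. The empty vector libraries without TGF-β stood above those of the other groups, with CMV-miR-29b replicate c without TGF-β just below them. The TGF-β fold change was −0.13 ± 0.06 (SE) in empty vector cells, with edgeR's Benjamini-Hochberg adjusted p at 0.311, −0.06 ± 0.06 with the Col1a1-miR-29b plasmid and −0.07 ± 0.06 with the CMV-miR-29b plasmid, and none of the 3 was called. Lifr (ENSMUSG00000054263, chr15:7090614-7197489 on the plus strand), the subunit for leukaemia inhibitory factor, was scarce and variable. Lifr libraries of empty vector cells stood at 2.90, 2.496 and 6.32 CPM without and 4.09, 4.94 and 7.24 CPM with TGF-β. The Col1a1-miR-29b libraries of Lifr stood at 2.89, 4.17 and 5.24 CPM without and 2.73, 5.01 and 5.37 CPM with TGF-β. The CMV-miR-29b libraries of Lifr stood at 6.51, 5.65 and 3.56 CPM without and 3.34, 5.74 and 5.49 CPM with TGF-β. Treated and untreated libraries overlapped under each plasmid. Its fold changes with TGF-β were 0.47 ± 0.38, 0.09 ± 0.38 and −0.11 ± 0.38, and the interval in empty vector cells was wide, from −0.33 to 1.28.

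Il11ra1 (ENSMUSG00000073889, chr4:41699989-41769474 on the plus strand) encodes the subunit for interleukin-11. Il11ra1 libraries of empty vector cells stood at 20.9, 20.5 and 22.1 CPM without and 19.7, 25.2 and 20.2 CPM with TGF-β. The Col1a1-miR-29b libraries of Il11ra1 stood at 21.7, 24.7 and 25.7 CPM without and 26.0, 25.9 and 25.3 CPM with TGF-β. The CMV-miR-29b libraries of Il11ra1 stood at 22.1, 23.6 and 20.3 CPM without and 19.7, 22.0 and 23.5 CPM with TGF-β. The untreated libraries all lay within the range of the treated ones, from 19.7 to 26.0 CPM. Its fold changes with TGF-β were 0.03 ± 0.10, 0.10 ± 0.10 and −0.02 ± 0.10. Neither gene was called with TGF-β under any plasmid: edgeR's lowest Benjamini-Hochberg adjusted p was 0.621 for Lifr and 0.765 for Il11ra1. The gene for the interleukin-11 receptor subunit was thus not shown to change.

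Counts of Il11ra1 carry an uncertainty of assignment. The annotated locus overlaps other genes, among them Galt on the same strand and Dctn3, Rpp25l, Arid3c and Ccl27a on the opposite strand. Dctn3 had 4485 to 5998 counts per library. The libraries were made with a stranded kit, and whether strand was used in counting is not stated. Il11ra2 and Gm13305, similar genes on the same chromosome, lay at no more than 1.22 and 0.949 CPM, and how reads matching several copies were assigned is not stated.

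Socs3 (ENSMUSG00000053113, chr11:117966079-117970047 on the minus strand) encodes the feedback inhibitor. Socs3 stood at 48.3, 51.3 and 49.4 CPM in the empty vector libraries without TGF-β and 53.2, 51.9 and 46.5 CPM with it. Col1a1-miR-29b cells had Socs3 at 63.6, 70.0 and 61.0 CPM without and 72.1, 65.2 and 67.4 CPM with TGF-β. CMV-miR-29b cells had Socs3 at 49.1, 53.0 and 47.9 CPM without and 61.4, 50.9 and 51.6 CPM with TGF-β. The 6 Col1a1-miR-29b libraries were the highest except that CMV-miR-29b replicate c with TGF-β reached the lowest of them. With TGF-β the fold changes were 0.03 ± 0.08 (SE), 0.07 ± 0.08 and 0.13 ± 0.08, none of them called, and edgeR's lowest Benjamini-Hochberg adjusted p was 0.500. Libraries of empty vector and CMV-miR-29b cells overlapped under either treatment. Socs3 was not shown to change with TGF-β.
Socs3 promoter: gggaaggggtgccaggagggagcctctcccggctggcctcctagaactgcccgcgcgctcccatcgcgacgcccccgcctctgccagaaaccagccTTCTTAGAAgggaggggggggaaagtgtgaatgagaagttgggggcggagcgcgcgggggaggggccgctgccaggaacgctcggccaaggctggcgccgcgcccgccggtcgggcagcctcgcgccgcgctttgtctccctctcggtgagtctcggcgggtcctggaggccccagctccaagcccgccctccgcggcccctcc
This window, at chr11:117969317-117969616 on the minus strand of GRCm38.p6, holds the STAT match at −154, in capitals.

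The plasmids were compared next. Without TGF-β, 2 of 8 members differed between Col1a1-miR-29b and empty vector cells, where 6.27% of all tested genes were called. With TGF-β, 1 of 8 differed, where 12.9% were called, and 2 more members (Il11ra1, higher, and Osmr, lower) were not called but had an unadjusted p under 0.05. Both comparisons with empty vector use the empty vector libraries of that treatment again for CMV-miR-29b. There edgeR called 0 of 8 members without TGF-β, where 0.00473% of genes were called, with 2 members (Lif and Osmr, both lower) at an unadjusted p under 0.05 and 0 called by DESeq2. With TGF-β edgeR called 0 of 8, where 0.00945% of genes were called, with 0 members at an unadjusted p under 0.05 and 0 called by DESeq2. Between the miR-29b plasmids, CMV-miR-29b against Col1a1-miR-29b, 1 of 8 differed without TGF-β, where 1.81% of genes were called, and 1 of 8 with TGF-β, where 1.93% were. Il11ra1 was lower there at an unadjusted p under 0.05 and was not called. A share near that of all genes is not a result about the members.

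Socs3 was higher with Col1a1-miR-29b than with empty vector without TGF-β, by a log2 fold change of 0.39 ± 0.08 (SE), with edgeR's Benjamini-Hochberg adjusted p at 0.0116. With TGF-β it was higher by 0.43 ± 0.08, with edgeR's Benjamini-Hochberg adjusted p at 0.00269. In both cases all 3 Col1a1-miR-29b libraries lay above all 3 empty vector libraries. The call without TGF-β held in 11 of 12 other settings and in 16 of 18 fits that each left out 1 library, and the call with TGF-β in all of them. Against Col1a1-miR-29b, CMV-miR-29b gave −0.38 ± 0.08 without TGF-β, with edgeR's Benjamini-Hochberg adjusted p at 0.0277, a call that held in 7 of 12 other settings and in 13 of 18 fits without a library. Of the libraries compared, only CMV-miR-29b replicate d could be left out without losing this call. With TGF-β CMV-miR-29b gave −0.32 ± 0.08, with edgeR's Benjamini-Hochberg adjusted p at 0.0495, a call that held in 4 of 12 other settings and in 2 of 18 fits without a library, with the direction kept throughout. Against empty vector, CMV-miR-29b gave 0.01 ± 0.08 and 0.11 ± 0.08. Osmr was lower with Col1a1-miR-29b than with empty vector without TGF-β, by −0.23 ± 0.06, with edgeR's Benjamini-Hochberg adjusted p at 0.0370, a call that held in 6 of 12 other settings and in 12 of 18 fits without a library. It was lost in every fit that left out a library of the groups compared. With TGF-β the Osmr value was −0.16 ± 0.06, with edgeR's Benjamini-Hochberg adjusted p at 0.0990. For the 3 members with a seed match, the changes from empty vector to CMV-miR-29b without TGF-β were −0.03 ± 0.19 for Il6, −0.21 ± 0.09 for Lif and 0.00 ± 0.04 for Il6st, none called, and edgeR's lowest Benjamini-Hochberg adjusted p among them was 0.878. With TGF-β the same changes were −0.06 ± 0.19, −0.09 ± 0.09 and 0.07 ± 0.04.

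**Figure D4:**
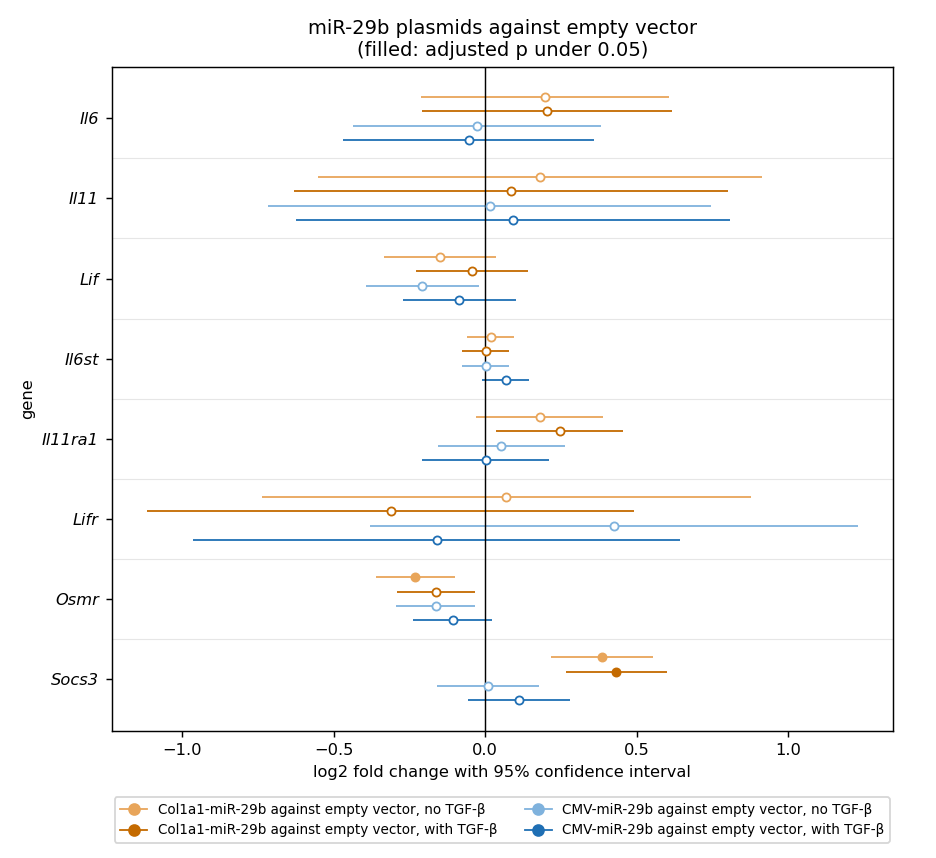
Log2 fold change with its 95% confidence interval for each miR-29b plasmid against empty vector, without and with TGF-β, filled where edgeR's adjusted p was under 0.05. Socs3 with the Col1a1-miR-29b plasmid stood at 0.39 and 0.43, and the intervals of most other points held 0.

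Genes that respond to interferon also differed with the Col1a1-miR-29b plasmid. Of a list of 10, 5 were higher with Col1a1-miR-29b than with empty vector without TGF-β (list median log2 fold change 0.40, all tested genes 0.018) and 5 with TGF-β (list median 0.43, all tested genes 0.019). The same genes were called both times: Mx1, Irf7 and Isg15, and also Usp18 and Ifit1, which are named here after their values were seen. Mx1 was at 15.5, 12.3 and 10.8 CPM with empty vector, 29.0, 21.5 and 27.4 CPM with Col1a1-miR-29b and 18.9, 11.9 and 14.8 CPM with CMV-miR-29b, all without TGF-β. Its log2 fold change from empty vector to Col1a1-miR-29b was 1.01 ± 0.19 (SE), with edgeR's Benjamini-Hochberg adjusted p at 0.00751. Against empty vector 0 of the 10 were called by edgeR with CMV-miR-29b under either treatment. The list median there was 0.21 without TGF-β, with 9 of 10 genes above 0, and 0.02 with it, with 6 of 10 above 0. For CMV-miR-29b against Col1a1-miR-29b, 3 of the 10 were lower without TGF-β and 5 with it, where 1.81% and 1.93% of all tested genes were called. The list medians were −0.25 and −0.37, and the Mx1 call without TGF-β held in 3 of 18 fits without a library. Of 13 NF-kappaB target genes, 1 was higher with Col1a1-miR-29b than with empty vector without TGF-β (Ccl7) and 4 with TGF-β (Cxcl1, Ccl2, Ccl7 and Ptgs2), against list medians of 0.10 and 0.24. Of 18 tested STAT3 target genes, 1 was higher (Junb) and 1 lower (Hif1a) without TGF-β, and 3 were higher (Fos, Bcl6 and Junb) and 3 lower (Hif1a, Vegfa and Lcn2) with it, against list medians of 0.07 and 0.10. Of 24 JAK-STAT genes, Stat2 was higher and Ptpn2 lower under both treatments, against list medians of −0.02 and −0.04, and the Stat2 call without TGF-β held in 6 of 12 other settings and in 3 of 18 fits without a library. The Ptpn2 call held in 6 of 12 other settings without TGF-β and in 7 of 12 with it, and in 14 of 18 fits each time. Over all tested genes 6.27% and 12.9% were called for Col1a1-miR-29b against empty vector, and shares of a list near those are not a result about the list. Of 9 tested gp130 family genes edgeR called 0 under either treatment, against list medians of 0.01 and −0.21. Of 8 tested fibroblast markers, 1 was lower with Col1a1-miR-29b than with empty vector without TGF-β (Col3a1) and 5 with TGF-β (Col1a1, Col1a2, Col3a1, Pdgfrb and Vim), against list medians of −0.32 and −0.43. Col1a1, Col1a2 and Col3a1 are collagen genes, and the paper counts collagens among the matrix genes that miR-29b targets. With CMV-miR-29b edgeR called 0 of the 8 markers under either treatment, against list medians of −0.18 and −0.32. Over all tested genes edgeR called 1 and 2 there and DESeq2 37 and 284, so 0 calls do not show that collagens were unchanged. The paper, using DESeq2, reports several collagen genes lowered with either miR-29b plasmid. It also reports less collagen with either plasmid in TGF-β treated cells by RT-qPCR and Western blot. Ptgs2, Junb, Hif1a, Fos, Bcl6, Ptpn2 and Vim are named here after their values were seen. In the paper the miR-29b plasmids were given at equal molar amounts and share their structure apart from the promoter, the Col1a1-miR-29b plasmid is larger and so heavier in DNA per ml, and no mass is stated for the empty vector. Promoter and DNA mass therefore change together between the miR-29b plasmids, and against empty vector the miR-29b insert and the fluorescent protein genes change with them. The part of the interferon genes, the fibroblast markers or the DNA mass in the Socs3 difference was not tested.

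Other genes of the pathway were followed in lists, beside the 5.88%, 4.32% and 4.95% of all tested genes that TGF-β changed with empty vector, Col1a1-miR-29b and CMV-miR-29b. Of 11 other ligands and receptors of the gp130 family, 9 passed the filter on low counts. TGF-β raised 1 in empty vector cells and 1 with the CMV-miR-29b plasmid, both times Il6ra, edgeR called 0 with the Col1a1-miR-29b plasmid, and none was lowered. The list medians were −0.31, −0.03 and 0.02. Il6ra encodes the subunit that binds interleukin-6. It was at 17.7, 10.1 and 12.6 CPM in the empty vector libraries without TGF-β and 21.1, 22.8 and 22.1 CPM with it. For the Col1a1-miR-29b plasmid Il6ra was at 17.4, 16.2 and 17.5 CPM without and 21.5, 15.3 and 20.2 CPM with TGF-β. For the CMV-miR-29b plasmid Il6ra was at 11.9, 10.3 and 13.7 CPM without and 21.7, 20.2 and 21.7 CPM with TGF-β. Treated libraries lay above untreated ones with empty vector and CMV-miR-29b and overlapped them with Col1a1-miR-29b. The log2 fold changes were 0.71 ± 0.17 (SE), 0.16 ± 0.17 and 0.83 ± 0.17, with edgeR's Benjamini-Hochberg adjusted p at 0.0174, 0.785 and 0.00721. The call in empty vector cells held in 15 of 18 fits that each left out 1 library, and was lost without replicate d or e of the untreated group or replicate e of the treated group. The smaller response with Col1a1-miR-29b was not shown to differ from that with empty vector, with a difference of −0.55 ± 0.24 and a 95% interval from −1.05 to −0.05, and edgeR did not call it. Il6 and its binding subunit thus moved in opposite directions in empty vector cells, though the fall of Il6 did not pass.

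Of 24 JAK-STAT transducers and regulators, TGF-β raised 1 and lowered 2 under each plasmid, with list medians of −0.0049, −0.0020 and 0.0020. The counts in either direction were 1 to 4, 1 to 4 and 2 to 5 over the other settings and the fits without a library. Cish, a feedback inhibitor from the same protein family as Socs3, rose. It was at 6.399, 5.04 and 7.27 CPM in the empty vector libraries without TGF-β and 15.5, 16.3 and 15.5 CPM with it, without overlap. Its log2 fold changes were 1.34 ± 0.12 (SE), 1.17 ± 0.12 and 1.26 ± 0.12 in empty vector, Col1a1-miR-29b and CMV-miR-29b cells, with edgeR's Benjamini-Hochberg adjusted p at 3.36e-06, 1.75e-05 and 7.08e-06. The phosphatase gene Ptpn6 fell in all 3, by log2 fold changes of −0.35, −0.43 and −0.49. Socs5 was called lower in empty vector and Col1a1-miR-29b cells at −0.25 and −0.25, and stood at −0.24 in CMV-miR-29b cells, and its calls held in 13 and 4 of 18 fits without a library. Stat2 was called in CMV-miR-29b cells at −0.41, and stood at −0.26 and −0.26 in the others. Among the inhibitors, Cish was called with TGF-β under each plasmid and Socs3 under none.

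Targets of STAT3 did not move together. Of 20 listed, 18 passed the filter, and TGF-β raised 4 and lowered 3 in empty vector cells, raised 3 and lowered 4 in Col1a1-miR-29b cells, and raised 4 and lowered 3 in CMV-miR-29b cells. The list medians were 0.03, 0.07 and 0.14, and the counts in either direction were 6 to 8, 5 to 9 and 6 to 8 over the other settings and the fits without a library. The acute-phase gene Saa3 fell by most on the log2 scale. It was at 15.05, 12.7 and 15.4 CPM in the empty vector libraries without TGF-β and 3.38, 4.32 and 3.81 CPM with it. Its log2 fold changes were −1.90 ± 0.20 (SE), −2.07 ± 0.20 and −2.05 ± 0.20 in empty vector, Col1a1-miR-29b and CMV-miR-29b cells, with edgeR's Benjamini-Hochberg adjusted p at 1.47e-05, 9.29e-06 and 8.60e-06. Lcn2, at −1.18, −1.33 and −1.08, and Lbp, at −0.49, −0.37 and −0.41, fell too. The protease inhibitor gene Timp1 rose by 0.73, 0.73 and 0.80, and the growth factor gene Vegfa by 0.48, 0.37 and 0.44. All of these were called in all 3 comparisons. Of the genes above, Saa3, Lcn2 and Lbp thus fell while Timp1 and Vegfa rose. The other called targets are named here after their values were seen. Junb rose in all 3 comparisons, by 0.39, 0.37 and 0.67. Myc was called in empty vector cells at 0.45, Pim1 in CMV-miR-29b cells at 0.76 and Cebpd in Col1a1-miR-29b cells at −0.55. Serpina3n and Hp, acute-phase genes also on the list, were not called with TGF-β.

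The called targets of NF-kappaB were lower with TGF-β, as Il6 was in mean, although Il6 was not called under any plasmid. Of 13, TGF-β lowered 5 in empty vector cells, 3 with the Col1a1-miR-29b plasmid and 4 with the CMV-miR-29b plasmid and raised none, with list medians of −0.43, −0.09 and −0.25. Called or not, 2, 6 and 5 of the 13 had a fold change above 0. Over the other settings and the fits without a library these counts were 4 to 5, 1 to 3 and 1 to 4. The chemokine gene Ccl20 was at 11.9, 9.40 and 11.6 CPM in the empty vector libraries without TGF-β and 2.02, 2.24 and 2.80 CPM with it. Its log2 fold changes were −2.22 ± 0.22 (SE), −2.41 ± 0.22 and −2.12 ± 0.22, with edgeR's Benjamini-Hochberg adjusted p at 7.08e-06, 4.41e-06 and 1.29e-05. Cxcl1 fell by log2 fold changes of −0.79, −0.46 and −0.50, and Vcam1 by −0.59, −0.41 and −0.37, called each time. Cxcl1 is listed above among the genes most like Il6, a likeness taken over these same treated and untreated libraries. Ccl2 stood at −0.43, −0.16 and −0.25 and was called in empty vector and CMV-miR-29b cells. Its call in CMV-miR-29b cells held in 10 of 12 other settings and in 9 of 18 fits without a library. Ccl7 stood at −0.38, −0.19 and −0.10 and was called in empty vector cells. The NF-kappaB targets named here and Il6 were lower in mean with TGF-β while Il11 and Lif were higher.

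**Figure D5:**
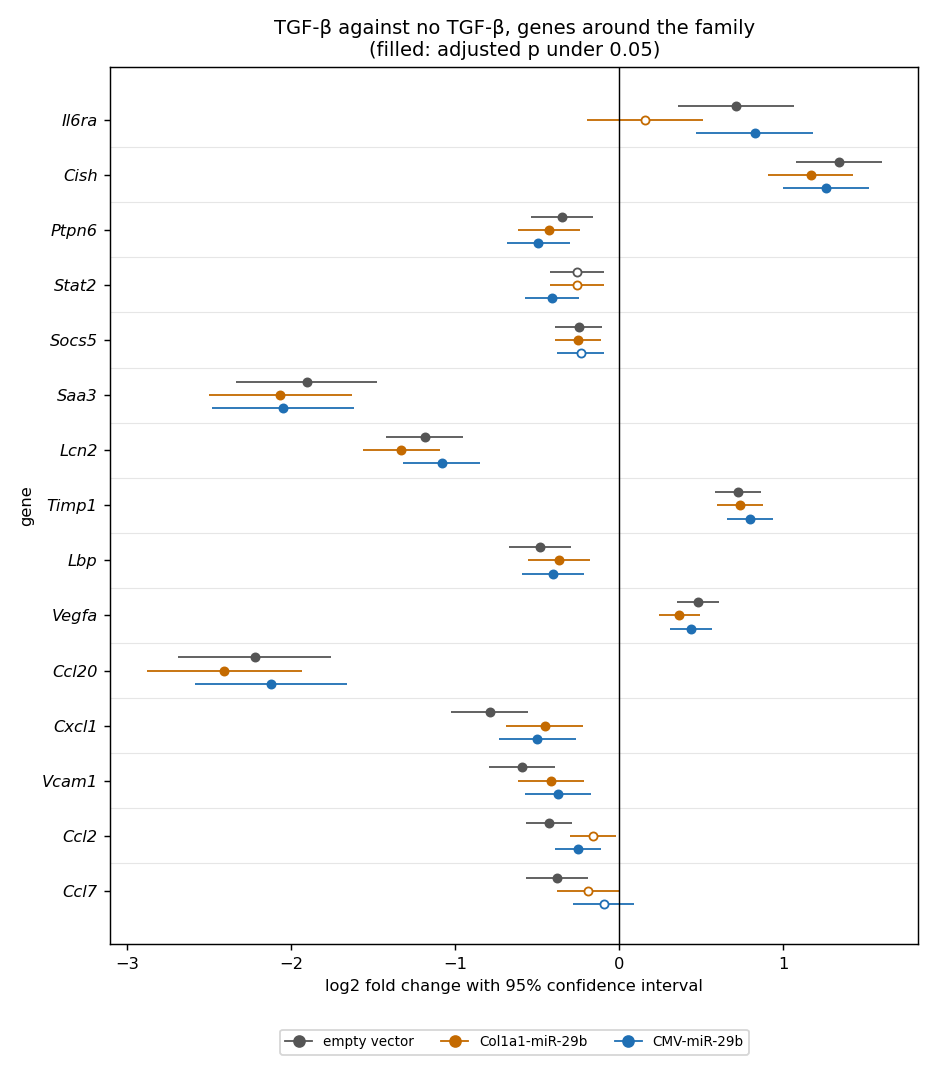
Log2 fold change with its 95% confidence interval for TGF-β against no TGF-β in each plasmid group, for called genes of the lists of gp130 family, JAK-STAT, STAT3 target and NF-kappaB target genes, filled where edgeR's adjusted p was under 0.05. Cish rose, while Saa3 at −1.90 and Ccl20 at −2.22 in empty vector cells fell.

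A list of known TGF-β responders showed that the treatment had acted under each plasmid. Of 9 listed, 8 passed the filter, and 7 were raised in empty vector cells, 6 with the Col1a1-miR-29b plasmid and 7 with the CMV-miR-29b plasmid, with list medians of 1.15, 1.04 and 1.28. In empty vector cells Postn, at no more than 42 counts in any untreated library, stood at 3.59, Ccn2 at 1.74, Acta2 at 1.64, Col1a1 at 1.26 and Smad7 at 1.05 on the log2 scale. The Smad7 call held in 3 of 12 other settings and in 2 of 18 fits without a library, and the counts of the list were 6 to 7, 5 to 7 and 6 to 8 over them. The estimate for Il11 was similar in size to that for Col1a1, but its interval was wider. With TGF-β the interferon list had 1 gene lower in empty vector cells (Irf7, −0.28), 5 lower in CMV-miR-29b cells (Mx1, Oasl2, Ifit3, Irf7 and Isg15) and 0 called by edgeR with the Col1a1-miR-29b plasmid, with list medians of −0.19, −0.30 and −0.19 in that order. Over the other settings and the fits without a library these counts were 0 to 1, 1 to 6 and 0 to 1. In CMV-miR-29b cells Ifit3 was called in 5 of 12 other settings and in 4 of the 18 fits without a library. Oasl2 was called there in 5 of 12 and 11 of 18.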

How the data were processed

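The authors deposited whole-number counts and FPKM per gene, made from reads handled, per the submitters' processing notes, with cutadapt, FastQC, HISAT2 and StringTie. The step from assembled transcripts to counts is not described. The labels name mm9 and the paper an Ensembl mouse genome, and the table's gene coordinates equal those of a GRCm38 annotation (GENCODE) for 52506 of 55450 genes and 7 of the 8 members, so GRCm38 was used. Counts of 18 libraries were analysed. Of counts from 1 to 40 in a library, 33.8% to 36.7% were multiples of 4, as are 25% of those whole numbers, so low counts may not be plain read counts, and the cause was not found. FPKM values of 16 were used, and 2 FPKM columns were left out because their letter matches no sample title. The count columns with that letter were kept.

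Counts were filtered (filterByExpr), scaled (TMM) and tested in edgeR 4.0.16 (quasi-likelihood, 1 mean per group, R 4.3.3). Calls used a Benjamini-Hochberg adjusted p under 0.05 over 21161 genes, with no fold threshold. The fitting steps were tested on simulated data, where 9 of 50 genes with a 1.3-fold change and 25 of 50 with a 2-fold change were called, so genes not called may have changed. Alternatives were DESeq2 1.42.0, other scalings and filters, only the groups compared, a replicate block, counts divided by 4, limma 3.58.1 on log2 FPKM, robust dispersions and leaving out each library. For a comparison of a pair of groups, most of the 18 fits without a library left out one from outside that pair.

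The members and lists were chosen with earlier results of these data known. After the fits, 1 gene was taken off the gp130 family list for a reason apart from its values, and the counts and median of that list were computed without it. All members were described. From each list, genes past the threshold in at least 1 TGF-β comparison were named, at most the 5 with the largest absolute log2 fold change in empty vector cells. For Il6, Il11 and Lif the 3 genes with the highest correlation, among those with a mean of at least 1 CPM, were named. Marker sums used 8 lists.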

Additional observations from a re-analysis of the deposited data

How the results depend on the processing

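The number of members called was 0 for CMV-miR-29b against empty vector and for both differences in TGF-β response in every alternative. No called fold change of a member changed sign under any alternative. For TGF-β in empty vector cells the count of 1 member became 2 with DESeq2, with at least 10 counts in every library and with counts divided by 4, where Il11 was added, and 0 with only the groups compared. For TGF-β in Col1a1-miR-29b cells the count of 2 became 3 with DESeq2, 1 with scaling by total counts, with at least 1 count in any library, with only the groups compared and with limma on log2(FPKM + 1), and 0 with limma on log2(FPKM + 0.1). For TGF-β in CMV-miR-29b cells the count of 2 became 1 with DESeq2 size factors, with at least 1 count in any library, with only the groups compared and with both limma fits. For Col1a1-miR-29b against empty vector without TGF-β the count of 2 became 1 with scaling by total counts, with at least 1 count in any library and with both limma fits, and with TGF-β it was 1 throughout. For CMV-miR-29b against Col1a1-miR-29b the count of 1 became 0 with only the groups compared and both limma fits under either treatment, and with TGF-β also with DESeq2 size factors, scaling by total counts and at least 1 count in any library.

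With a replicate block on the 16 lettered libraries the counts were 0 for TGF-β in Col1a1-miR-29b cells, 1 for TGF-β in CMV-miR-29b cells, and 0 for Col1a1-miR-29b against empty vector without TGF-β and for CMV-miR-29b against Col1a1-miR-29b under either treatment. The same 16 libraries without a block, an alternative chosen after seeing the data, gave 0, 1, 1, 0 and 0 in this order. The cause of these changes was not tested.

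Leaving out 1 library at a time gave 1 to 2 members for TGF-β in empty vector cells, where Il11 was called without empty vector + TGF-β replicate e (adjusted p 0.0444) or Col1a1-miR-29b replicate c (0.0167). It gave 1 to 2 in Col1a1-miR-29b cells, where Lif was not called without any library of the 6 compared except Col1a1-miR-29b replicate d, nor without empty vector + TGF-β replicate e (0.0507 to 0.195). It gave 0 to 2 in CMV-miR-29b cells. Il11 was called there only without empty vector replicate d, empty vector + TGF-β replicate e or Col1a1-miR-29b replicate c, and otherwise had an adjusted p up to 0.157, and Lif was not called without CMV-miR-29b replicate d or e or CMV-miR-29b + TGF-β replicate c or d (0.0725 to 0.129). Il6 was added there without CMV-miR-29b + TGF-β replicate c (0.0315) and Il6st without CMV-miR-29b replicate e (0.0222). For Col1a1-miR-29b against empty vector it gave 0 to 2 without TGF-β. Osmr was not called without any of the 6 libraries compared (0.0588 to 0.102), and Socs3 was not called without empty vector replicate c (0.0556) or Col1a1-miR-29b replicate d (0.0749). With TGF-β it gave 1 to 2, where Il11ra1 was added without empty vector + TGF-β replicate d (0.0165) and Osmr without CMV-miR-29b replicate c (0.0442). For CMV-miR-29b against Col1a1-miR-29b it gave 0 to 1 without TGF-β, where Socs3 was not called without any of the 6 compared except CMV-miR-29b replicate d (0.05003 to 0.144). It gave 0 to 1 with TGF-β, where Socs3 was called only without CMV-miR-29b replicate d or CMV-miR-29b + TGF-β replicate c, and otherwise had an adjusted p from 0.0519 to 0.225. These are edgeR's Benjamini-Hochberg values.

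Over all tested genes the counts were 1245 as reported and 618 to 1766 over the alternatives for TGF-β in empty vector cells, 914 and 394 to 1317 in Col1a1-miR-29b cells, and 1047 and 527 to 1518 in CMV-miR-29b cells. They were 1327 and 161 to 2362 for Col1a1-miR-29b against empty vector without TGF-β, and 2738 and 1072 to 3488 with it. For CMV-miR-29b against empty vector they were 1 and 0 to 37, and 2 and 1 to 284. For CMV-miR-29b against Col1a1-miR-29b they were 382 and 18 to 1225, and 408 and 13 to 1095. Scaling by total counts changed the share of called genes that were higher from 65.9% to 53.1% for TGF-β in empty vector cells. For Col1a1-miR-29b against empty vector it changed the share from 40.9% to 51.4% without TGF-β and from 41.0% to 52.6% with it, and for CMV-miR-29b against Col1a1-miR-29b without TGF-β from 55.5% to 43.5%.

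With length-scaled counts in place of FPKM, 33 of 48 means differed from the mean FPKM by more than its SD between libraries. Length-scaled means were above mean FPKM for every member in every group, so this count does not measure how stable the levels are. The rank of a member differed in 2 of 48 places, both in Col1a1-miR-29b cells with TGF-β, where Il6 ranked above Osmr. Measure and libraries changed together there, because the length-scaled mean also holds the unlettered library. Length-scaled Il6 and Osmr were at 4.99 and 4.01 in that library, 4.27 and 4.12 in replicate c and 3.99 and 4.31 in replicate d. The calls of Cish, Timp1, Lcn2, Saa3 and Ccl20 with TGF-β held in all 12 alternatives and all 18 fits without a library.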
